A study of Rattus norvegicus with 16 samples.

Results

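Tnnt2 and Ankrd1 are 2 of the 32552 genes counted in RNA from the rat abdominal wall beneath an implant. Both were chosen by their identifiers, ENSRNOG00000033734 for Tnnt2 and ENSRNOG00000018598 for Ankrd1, because earlier work on the same count files had shown a large difference between implants on day 14. For Tnnt2 the change of that difference between days was also in view. The day 14 values and the comparisons between days are therefore given below as descriptions, without a p-value. The count files hold no gene symbols. The names were given with the identifiers, and RefSeq (build GRCr8) has Tnnt2 spanning 18003 bases of chromosome 13 and Ankrd1 8555 bases of chromosome 1, where these identifiers span 17995 and 8580 bases of the same chromosomes in the files.

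The 16 libraries form 4 groups of 4. They are abdominal wall under an adhesive implant on day 14, under a non-adhesive implant on day 14, under an adhesive implant on day 3, and under a non-adhesive implant on day 3. All rats were 12-week-old Sprague Dawley rats with no genetic modification named. The labels give every library as female, while the study's methods name both sexes for its rat work. The adhesive implant bonds to the tissue surface. The non-adhesive control was the same implant swollen in buffer overnight before use, so that it no longer bonded, and it was held with sutures, so suturing differs between implants in every comparison. Libraries are bulk poly-A RNA, and the labels do not say whether each library is a separate rat, so the p-values below measure the spread between libraries, which may be technical in part. The series' design text names day 17 in one place and day 14 in another, and the extraction protocol names day 10. Day 14 is used here, as the sample descriptions give it. Library totals ran from 13852126 to 24858976 counts. Non-adhesive day 14 replicate 4 stood apart from its group in muscle and fibroblast genes, and the day 14 values are also given without it.

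Tnnt2 encodes cardiac troponin T, the subunit that fixes the troponin complex to tropomyosin on the thin filament of striated muscle. It is the main troponin T of the adult heart, and skeletal muscle uses it in the embryo and again in regenerating fibres. Ankrd1 encodes the cardiac ankyrin repeat protein, a member of the muscle ankyrin repeat family that binds titin and myopalladin in the sarcomere and also enters the nucleus. It is known as an early response gene of stretched, injured or denervated muscle, and outside muscle as a target of the YAP and TEAD transcription factors.

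In the count files Tnnt2 lies on the plus strand of chromosome 13, from 52662996 to 52680990, with 16 exon blocks and 1209 exonic bases. Ankrd1 lies on the minus strand of chromosome 1, from 254726969 to 254735548, with 9 exons and 1770 exonic bases. These coordinates are printed as the files give them, because the sources name different genome builds. No other gene in the files overlaps either of them. The nearest gene to Tnnt2 is 3377 bases away and the nearest to Ankrd1 is 6882 bases away.

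The promoter of Tnnt2 is shown because its chicken counterpart is the classic place of the MCAT element, the site that TEAD proteins bind in muscle genes. RefSeq lists 2 start sites for rat Tnnt2 in the table used here, and the window below covers 250 bases before to 50 bases after the upstream start, on the plus strand of build GRCr8 at chr13:49818873-49819172. Capitals mark the MCAT letters CATTCC.

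Tnnt2 promoter: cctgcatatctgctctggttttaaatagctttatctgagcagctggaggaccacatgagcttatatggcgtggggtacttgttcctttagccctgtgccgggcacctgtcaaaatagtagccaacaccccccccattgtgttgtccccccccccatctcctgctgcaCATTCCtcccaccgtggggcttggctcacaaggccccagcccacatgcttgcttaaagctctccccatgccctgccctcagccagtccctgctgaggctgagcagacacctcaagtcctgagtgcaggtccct

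The capitals begin 83 bases and end 78 bases before the start site. CATTCC, or GGAATG on the other strand, occurs in 14.2% of the 33469 windows of the same length, so the match by itself is not rare. The window also holds the E-box letters CANNTG, a site class bound by MyoD and its relatives, in 4 places, and 72.1% of all windows hold at least 1. GATAA, read on both strands, occurs in 1 place here and in 26.5% of all windows. TATAAA and CCAAT, the MEF2 site and the CArG box were not found in it on either strand, against 14.2%, 37.5%, 3.29% and 1.64% of all windows. The window at the second start site, chr13:49823809-49824108 on the same strand, holds no MCAT letters and 1 E-box. A letter match is a description of the sequence, and no binding was measured.

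On day 14 both genes were far higher in abdominal wall under adhesive implants. Tnnt2 had 115, 135, 159 and 114 CPM in the adhesive libraries, against 13.3, 7.58, 10.2 and 12.4 CPM in the non-adhesive libraries. CPM are counts per 1000000 counts of a library, scaled here by library total and by the trimmed mean of M-values (TMM), an adjustment for differences in RNA makeup. The 4 adhesive libraries lay close together, the 4 non-adhesive libraries did as well, and the groups were far apart. Tnnt2 averaged 131 ± 20.9 CPM at adhesive implants and 10.8 ± 2.54 CPM at non-adhesive implants (SD, n = 4 each). The fitted log2 fold change was 3.59 (standard error, SE, 0.22), which is 12.1-fold. In raw reads, the adhesive libraries held 1062 to 1819 Tnnt2 counts and the non-adhesive libraries 111 to 229.

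Ankrd1 had 472, 1009, 894 and 399 CPM in the adhesive libraries of day 14, against 48.5, 20.5, 20.0 and 36.2 CPM in the non-adhesive libraries. The adhesive libraries fell into a higher pair, replicates 2 and 3, and a lower pair, replicates 1 and 4, yet the lowest of them was still well above the highest non-adhesive library. The means were 693 ± 303 CPM at adhesive implants and 31.3 ± 13.7 CPM at non-adhesive implants (SD, n = 4 each). The log2 fold change was 4.47 (SE 0.47), or 22.2-fold, and the raw counts ran from 4361 to 13319 in adhesive and from 300 to 837 in non-adhesive libraries.

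**Figure D1:**
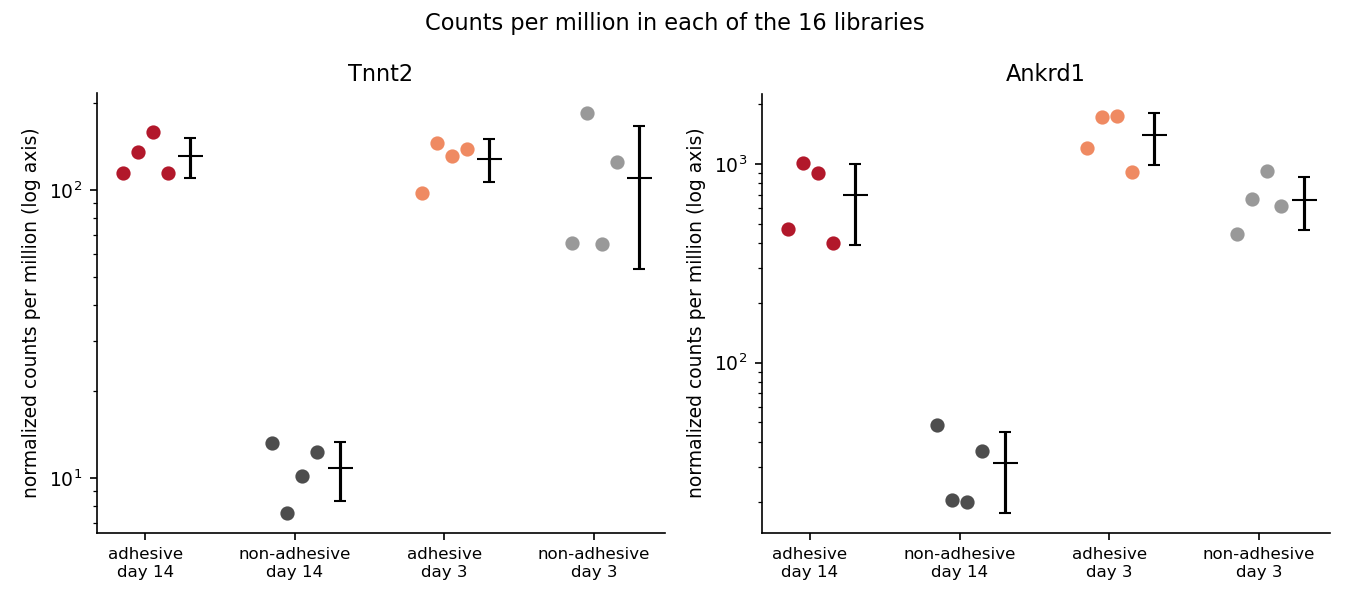
Normalized CPM of Tnnt2 (left) and Ankrd1 (right) in each library, on a log axis, for adhesive and non-adhesive implants on day 14 and then on day 3. Points are libraries, and the bar beside each group is its mean with SD (n = 4). The non-adhesive libraries of day 14, at 7.58 to 13.3 CPM for Tnnt2 and 20.0 to 48.5 CPM for Ankrd1, lie below all 12 other libraries.

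Ordered by log2 fold change among the 13557 genes tested on day 14, Ankrd1 was number 2 and Tnnt2 number 5 from the top. In that comparison edgeR's quasi-likelihood test called 36 genes (0.266%), those with a fold change of 2 or more and an adjusted p no higher than 0.05, of which 21 (0.155%) were higher at adhesive implants. The count was 1, 3 and 4 genes without adhesive replicate 1, 3 or 4, and 5, 2, 4 and 1151 genes without non-adhesive replicate 1, 2, 3 or 4. Both genes had adhesive libraries all above the non-adhesive ones, as did 4.54% of all genes tested. Since this contrast chose the genes, these places are a description and nothing is read from them.

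On day 3 the picture was different for each gene. Tnnt2 had 97.4, 146, 131 and 138 CPM in the adhesive libraries, against 65.6, 184, 65.0 and 124 CPM in the non-adhesive libraries. The groups overlapped, and the non-adhesive libraries were split into a lower pair, replicates 1 and 3, and a higher pair, replicates 2 and 4. The means were 128 ± 21.4 CPM at adhesive implants and 110 ± 56.9 CPM at non-adhesive implants (SD, n = 4 each), with a log2 fold change of 0.24 (SE 0.33). This difference was smaller than its standard error.

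Ankrd1 on day 3 is the only comparison of these genes that the choice did not use. It had 1202, 1714, 1731 and 909 CPM in the adhesive libraries, against 446, 669, 918 and 612 CPM in the non-adhesive libraries. Only the lowest adhesive library and the highest non-adhesive library crossed over, by 909 against 918 CPM. The means were 1389 ± 403 CPM at adhesive implants and 661 ± 196 CPM at non-adhesive implants (SD, n = 4 each), a log2 fold change of 1.07 (SE 0.28), or 2.1-fold. The difference did not pass across all genes (adjusted p = 0.591, edgeR quasi-likelihood test with Benjamini-Hochberg adjustment over 14223 genes, unadjusted p = 0.00437). A two-sided exact permutation test over the 35 ways to split the 8 libraries gave p = 0.0571, where the smallest p this design allows is 0.0286. DESeq2, run as an alternative, put the same fold change past the threshold (adjusted p = 0.0378). The other alternatives in which Ankrd1 was read gave adjusted p-values of 0.209 to 0.99.

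The background of day 3 was low. By edgeR 0 of 14223 genes (0.0%) were called and 1022 (7.19%) had an unadjusted p under 0.05. By DESeq2 108 genes (0.759%) had an adjusted p no higher than 0.05, of which 69 reached the fold limit. By size of the log2 fold change Ankrd1 was number 185 and Tnnt2 number 2810 from the top. The call of Ankrd1 on day 3 thus depended on the tool.

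Between the days, under adhesive implants the genes differed from each other. Tnnt2 averaged 131 CPM on day 14 and 128 CPM on day 3 (log2 fold change 0.03, SE 0.29). Ankrd1 averaged 693 CPM on day 14 and 1389 CPM on day 3 (log2 fold change -1.0, SE 0.37), and 1 of its day 14 libraries, at 1009 CPM, lay above the lowest of day 3, at 909 CPM. Here edgeR called 1186 of 14601 genes (8.12%), 545 of them (3.73%) lower on day 14, and 592, 767 and 662 genes without adhesive day 14 replicate 1, 3 or 4, and 462 and 727 genes without adhesive day 3 replicate 2 or 4.

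Under non-adhesive implants both genes were far lower on day 14. Tnnt2 averaged 10.8 CPM on day 14 and 110 CPM on day 3, a log2 fold change of -3.34 (SE 0.32). Ankrd1 averaged 31.3 CPM on day 14 and 661 CPM on day 3, a log2 fold change of -4.4 (SE 0.42). For both genes the 4 libraries of day 14 were all below the 4 of day 3, as were 8.92% of the 14601 genes tested. In the same comparison edgeR called 1325 genes (9.07%), 548 of them (3.75%) lower on day 14, and 744 genes without non-adhesive day 3 replicate 3. Ankrd1 was number 21 and Tnnt2 number 46 from the lowest log2 fold change.

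The day comparisons depend on scaling more than the implant comparisons do. When CPM were computed from library totals alone, the median of all genes tested moved to -0.58 under adhesive implants, against -0.01 with TMM, and Tnnt2 moved with it to -0.55. Under non-adhesive implants the median moved to -0.39, against 0.04, and the log2 fold changes were -3.73 for Tnnt2 and -4.83 for Ankrd1. The share of called genes that were higher on day 14 was 11.4% without TMM and 54.0% with it under adhesive implants, and 20.0% and 58.6% under non-adhesive implants. This scaling was added after the values were seen. Day of collection and any batch that follows it cannot be told apart.

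The change of the implant difference between days, fitted over all 16 libraries, was a log2 of 3.37 (SE 0.43) for Tnnt2 and 3.4 (SE 0.53) for Ankrd1. The change was of like size for both genes, although their day 3 differences were 0.24 and 1.07. In this contrast edgeR called 1 of 14601 genes (0.00685%). Tnnt2 was chosen with this contrast in view, so no call is read for it. The call was lost without any 1 of 9 libraries and the count was 3 genes without non-adhesive day 14 replicate 4. Their places by size were number 17 for Tnnt2 and number 15 for Ankrd1.

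The order of the group levels differed only at the top. For Tnnt2, adhesive day 14 (131 CPM), adhesive day 3 (128 CPM) and non-adhesive day 3 (110 CPM) overlapped, and non-adhesive day 14 (10.8 CPM) stood below. For Ankrd1 the order was adhesive day 3 (1389 CPM), adhesive day 14 (693 CPM), non-adhesive day 3 (661 CPM) and non-adhesive day 14 (31.3 CPM), and each neighbouring pair overlapped except the last. The spread within groups also differed. The coefficient of variation of Tnnt2 was 16.02% at adhesive day 14 and 23.4% at non-adhesive day 14, against 16.7% at adhesive day 3 and 51.8% at non-adhesive day 3. That of Ankrd1 was 43.7% at adhesive day 14 and 43.8% at non-adhesive day 14, against 29.0% at adhesive day 3 and 29.6% at non-adhesive day 3.

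**Figure D2:**
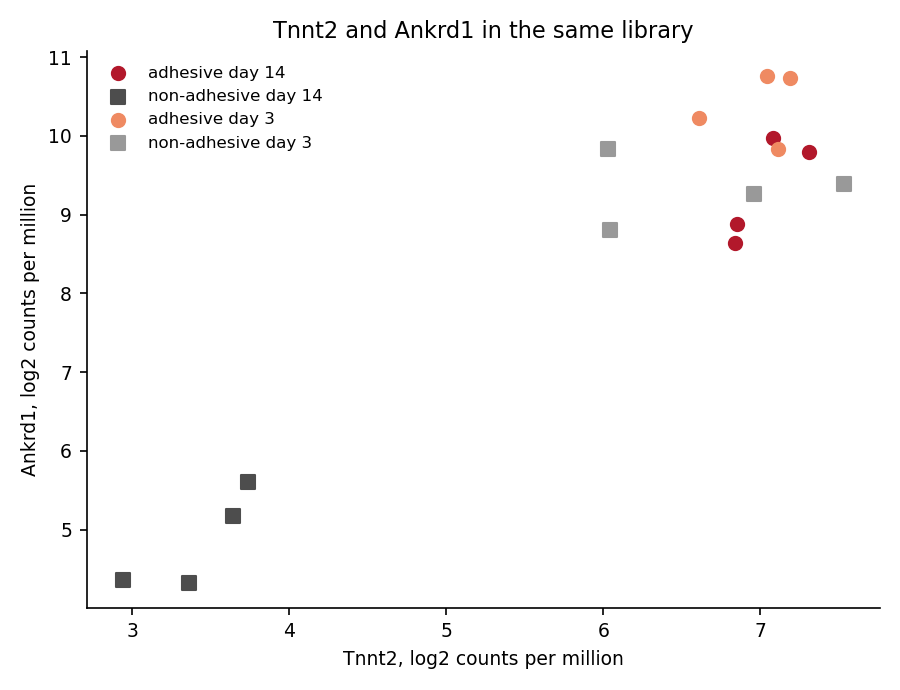
Tnnt2 (horizontal axis) and Ankrd1 (vertical axis) in the same library, both in log2 CPM with a prior count of 2, where a circle is a library under an adhesive implant and a square a library under a non-adhesive one. The 4 non-adhesive libraries of day 14 sit alone at the lower left, and the 12 other libraries form a cloud in which Tnnt2 spans 65.0 to 184 CPM.

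Compared per exonic length, Ankrd1 was the more abundant in every library. As RPKM, which are the normalized CPM divided by exonic length in kilobases, Ankrd1 averaged 392 RPKM and Tnnt2 108 RPKM at adhesive day 14, and 17.7 RPKM and 8.97 RPKM at non-adhesive day 14. On day 3 Ankrd1 averaged 785 RPKM and Tnnt2 106 RPKM at adhesive implants, and 374 RPKM and 90.8 RPKM at non-adhesive implants. The ratio of Ankrd1 to Tnnt2 was 2.38 to 5.09 at adhesive day 14 and 1.34 to 2.5 at non-adhesive day 14, against 4.49 to 8.99 at adhesive day 3 and 2.48 to 9.64 at non-adhesive day 3. The ratio was thus lowest where both genes were low, and its day 14 ranges overlapped.

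Placed among all 14601 genes by mean RPKM, Ankrd1 was above 98.5% of genes at adhesive day 14 and above 73.6% at non-adhesive day 14, and above 99.5% and 98.7% at adhesive and non-adhesive implants on day 3. Tnnt2 was above 95.2% of genes at adhesive day 14 and above 57.6% at non-adhesive day 14, and above 95.5% and 94.4% at adhesive and non-adhesive implants on day 3. Neither gene was absent from the non-adhesive libraries of day 14. Each was a middling transcript there and a prominent one in the other 3 groups.

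Muscle content can move both genes in bulk tissue, where fewer muscle cells and less RNA per muscle cell cannot be told apart. Symbols were at hand for 1957 identifiers only, so few of the muscle genes of interest could be read. Of the troponin complex and the muscle ankyrin repeat family no other member had a symbol, and none of the heart or smooth muscle markers did, so those families are not analysed here. Mb, which encodes the oxygen store myoglobin, and Eno3, the muscle enolase, were the 2 of 20 adult fibre genes with a symbol. Mb ranged over 6410 to 9150 CPM at adhesive day 14 and 2060 to 6230 CPM at non-adhesive day 14, and Eno3 over 5690 to 11800 CPM at adhesive and 5520 to 15700 CPM at non-adhesive implants. Muscle RNA was thus abundant under both implants on day 14. On day 14 neither gene passed between implants, at a log2 fold change of 1.09 (SE 0.38, adjusted p = 0.217, edgeR) for Mb and 0.03 (SE 0.42, adjusted p = 0.986, edgeR) for Eno3. Mb passed with DESeq2 (adjusted p = 0.0472), and with edgeR without non-adhesive replicate 4 at 1.49 (SE 0.25, adjusted p = 0.0106), where Eno3 was at 0.51 (adjusted p = 0.165). In these 2 fits 6.8% and 20.5% of all genes passed at any fold.

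Tnnt2 and Ankrd1 were also taken relative to Mb and Eno3 in the same library. The difference of Tnnt2 from their mean log2 CPM was -6.5, -5.48, -5.5 and -6.19 at adhesive implants, against -8.05, -9.19, -8.5 and -9.63 at non-adhesive implants. That of Ankrd1 was -4.46, -2.58, -3.01 and -4.39 at adhesive implants, against -6.19, -7.77, -7.53 and -8.09 at non-adhesive implants. The groups did not overlap for either gene, and the means differed by 2.92 for Tnnt2 and 3.78 for Ankrd1 on the log2 scale. These are the day 14 values that chose the genes, and the share of all genes separating in this way is not given here. On day 3 the groups overlapped, with mean differences of 0.3 for Tnnt2 and 1.02 for Ankrd1 (two-sided exact permutation p = 0.2 for Ankrd1, smallest possible p 0.0286).

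A broader set of 28 muscle fibre genes, put together from the symbols at hand after the values of the study were known, was read in the same way. It holds genes of contraction, calcium handling, the sarcoglycan complex and glycogen breakdown, such as Atp2a2, Sgca and Phka1. Their mean log2 CPM was 6.8 to 7.49 at adhesive day 14 and 6.56 to 7.29 at non-adhesive day 14, against 5.7 to 6.76 at adhesive day 3 and 5.54 to 6.7 at non-adhesive day 3. None of the 28 was at 0 in any group, and their summed level was 22075 to 36177 CPM at adhesive day 14 and 14611 to 35545 CPM at non-adhesive day 14. Relative to these genes Tnnt2 differed between implants on day 14 by a log2 of 3.21 and Ankrd1 by 4.07, without overlap. These day 14 values also chose the genes. The share of all genes separating in this way is not given here, so nothing is read from the separation. On day 3 the differences were 0.18 and 0.9, with overlap. Over the 8 day 14 libraries the mean of the 28 correlated with Tnnt2 at a Pearson r of 0.58 and with Ankrd1 at 0.52. Over all 16 libraries r was -0.11 and -0.27. The part of muscle content in the values of Tnnt2 and Ankrd1 was not tested. By edgeR, 0 of the 28 passed between implants on day 14, where 0.273% of all genes passed at any fold, and 24 of the 28 had a positive log2 fold change, with a median of 0.38 beside -0.04 for all genes. DESeq2 passed 4 of the 28, all higher, and 6.8% of all genes. Without non-adhesive replicate 4, edgeR passed 13 of the 28 higher and 1 lower, with a median of 0.64, and 20.5% of all genes.

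**Figure D3:**
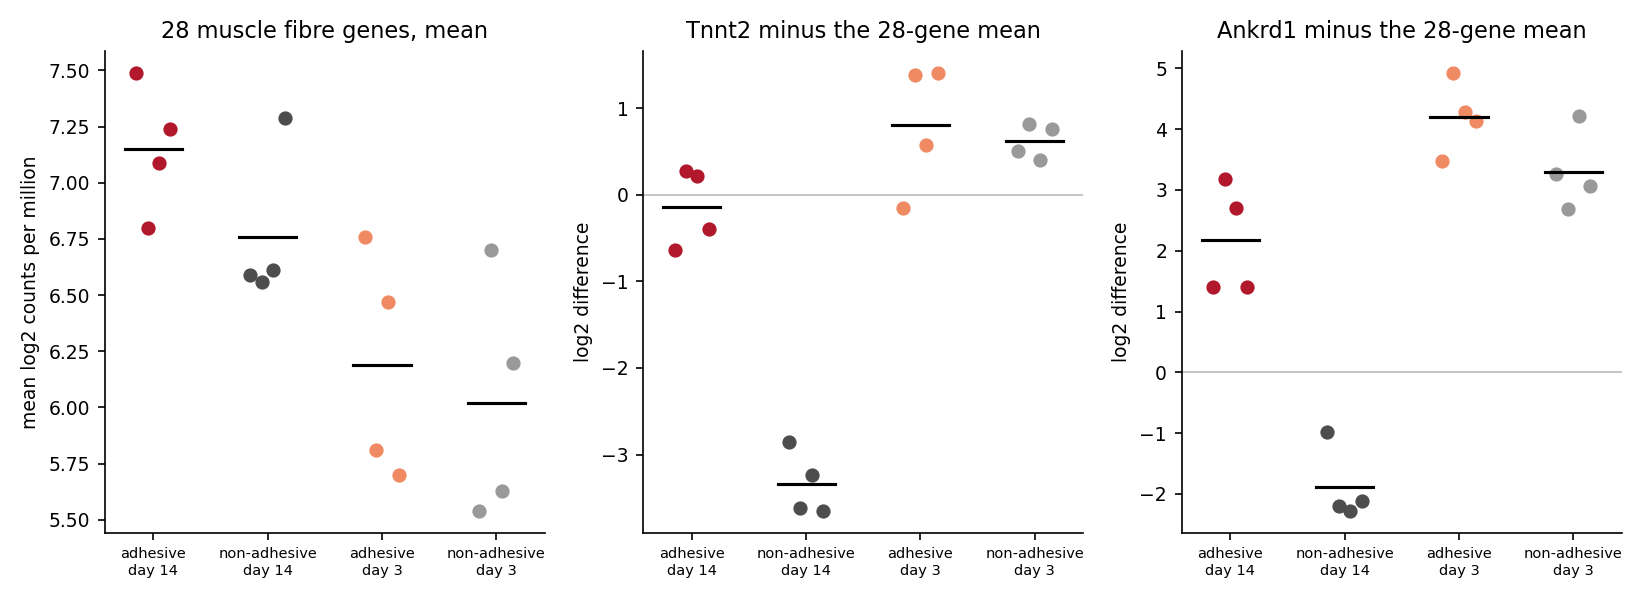
Left, the mean log2 CPM of 28 muscle fibre genes in each library. Middle and right, Tnnt2 and Ankrd1 minus that mean in the same library, with the line at 0 marking equal level. Points are libraries and black lines are group means. The muscle gene means overlap between implants on both days. The day 14 points of Tnnt2 and Ankrd1, which rest on the values that chose the genes, are 3.21 and 4.07 log2 units apart on average.

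Non-adhesive day 14 replicate 4 stood apart from the other libraries of its group. Its 28 muscle genes had a mean log2 CPM of 7.29, against 6.56 to 6.61 in replicates 1 to 3, and its 6 named fibroblast genes a mean of 7.81, against 10.05 to 10.37. Ptprc, which encodes the leukocyte surface phosphatase CD45, was lowest in it at 16.5 CPM. Its muscle and fibroblast levels thus lay within the range of the adhesive libraries of day 14. Tnnt2 and Ankrd1 were 12.4 and 36.2 CPM there, inside the range of the other 3 non-adhesive libraries and far below the lowest adhesive library at 114 and 399 CPM. This is 1 library, and the part of tissue makeup in the values of Tnnt2 and Ankrd1 was not tested. Without this library the day 14 log2 fold changes were 3.64 for Tnnt2 and 4.53 for Ankrd1, and relative to Mb and Eno3 the differences were 2.66 and 3.55. The day 14 call count was 1151 genes without it, against 36 with it, and 20.5% of genes then passed at any fold.

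Genes of the titin and Z-disc region did not pass between implants with all libraries in edgeR. Mypn encodes myopalladin, which binds Ankrd1 at the I-band and Z-disc, and Fhl1 encodes a LIM protein that binds titin. They were the 2 of 22 titin and Z-disc genes with a symbol, and both are also among the 28 muscle genes. Mypn ranged over 508 to 906 CPM at adhesive day 14 and 357 to 630 CPM at non-adhesive day 14, with a log2 fold change of 0.64 (SE 0.26, adjusted p = 0.286, edgeR). Fhl1 ranged over 4800 to 7010 CPM and 2020 to 5150 CPM in the same groups, with a log2 fold change of 1.0 (SE 0.33, adjusted p = 0.2, edgeR). Fhl1 passed with DESeq2 (adjusted p = 0.0322), as did 6.8% of all genes. Without non-adhesive replicate 4 both passed, Mypn at 0.85 (adjusted p = 0.0245, edgeR) and Fhl1 at 1.33 (adjusted p = 0.00908, edgeR). In that fit 20.5% of all genes passed. On day 3 Mypn was at 0.38 and Fhl1 at 0.75, and neither passed.

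Of genes known from injured, regenerating or denervated muscle, 5 had a symbol. Myf5, a myogenic factor of satellite cells, was 4.22 to 6.37 CPM at adhesive day 14 and 1.47 to 4.67 CPM at non-adhesive day 14 (fitted log2 fold change 0.92, SE 0.34, adjusted p = 0.234, edgeR). Runx1, a transcription factor that protects denervated fibres, had a log2 fold change of 1.1 and Cdkn1a, which encodes the cell cycle inhibitor p21, of 0.98, and neither passed with edgeR (adjusted p = 0.255 and 0.139). Foxo3 and Fbxo21, both tied to muscle wasting, were at 0.23 and 0.3. Of the 4 denervation and atrophy genes 0 passed on day 14 with edgeR, where 0.273% of all genes did. All 4 were positive, with a median of 0.64 beside -0.04 for all genes. With DESeq2 1 of the 4 passed, namely Cdkn1a (adjusted p = 0.0165), beside 6.8% of all genes. Without non-adhesive replicate 4 Myf5 passed at 1.19 (SE 0.3, adjusted p = 0.0299, edgeR) and 0 of the 4 did, beside 20.5% of all genes.

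Of the 24 listed genes with a symbol, 6 passed between days under adhesive implants, where 14.9% of all genes passed at any fold, and 7 under non-adhesive implants, where 17.5% did. Under adhesive implants Runx1 fell by 1.46 and Cdkn1a fell by 1.24 on the log2 scale (adjusted p = 0.0277 and 0.00709, edgeR), while Myf5 had a log2 fold change of -1.21 that did not pass (adjusted p = 0.0574, edgeR). Under non-adhesive implants Runx1 fell by 2.58 (SE 0.42), Cdkn1a fell by 2.43 (SE 0.26) and Myf5 fell by 2.0 (SE 0.42) on the log2 scale (adjusted p = 0.00191, 0.00013 and 0.00744, edgeR). The change of the implant difference between days did not pass for any of these 3 (lowest adjusted p = 0.738, for Cdkn1a, edgeR). In that contrast 0.00685% of all genes passed at any fold, so not passing says little. The estimates were a log2 of 1.19 (SE 0.35) for Cdkn1a, 1.12 (SE 0.56) for Runx1 and 0.79 (SE 0.58) for Myf5. Mb and Eno3 were higher on day 14, with log2 fold changes of 3.02 and 2.63 over day 3 under adhesive implants (adjusted p = 0.00366 and 0.0101, edgeR). Under non-adhesive implants Eno3 passed at 2.79 (adjusted p = 0.00618, edgeR) and Mb, at 1.43, did not (adjusted p = 0.058, edgeR). Crim1, lower on day 14, and Dpt, higher on day 14, also passed under both implants. Among the 28 broader muscle genes Phkg1, a subunit of the kinase that starts glycogen breakdown, and Kcnj12, a potassium channel, also rose on day 14, by 2.52 and 2.23 under adhesive implants and by 2.65 and 2.02 under non-adhesive implants on the log2 scale (adjusted p = 0.0121, 0.0106, 0.00793 and 0.013, edgeR). Of the 28, 8 passed higher and 0 lower on day 14 under adhesive implants, with 5 negative in all, beside the 14.9% of all genes. Under non-adhesive implants 7 passed higher and 1 lower, with 7 negative in all, beside the 17.5%. Without non-adhesive day 14 replicate 4 the latter were 5 higher and 3 lower, with 12 negative. The share of all genes in that fit is not given here, so nothing is read from its counts.

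Ankrd1 is also counted as a YAP-TEAD target, and 5 others of that 22-gene list, which is known mostly from human cells, had a symbol. On day 14, 0 of the 5 passed between implants, where 0.273% of all genes did, and the median log2 fold change was 0.05 beside -0.04 for all genes. Without non-adhesive replicate 4, 1 of the 5 passed, where 20.5% of all genes did. It was Ccdc80, at -2.17 (adjusted p = 0.0227, edgeR), and the median was -0.12. Ccdc80, a secreted matrix protein, was 93.8 to 433 CPM at adhesive and 120 to 1120 CPM at non-adhesive implants (fitted log2 fold change -1.8, SE 0.7, adjusted p = 0.259, edgeR). Tgfb2, a growth factor, averaged 79.4 ± 44.9 CPM at adhesive day 14 and 43.1 ± 7.03 CPM at non-adhesive day 14 (SD, n = 4 each, fitted log2 fold change 0.88, SE 0.34, adjusted p = 0.25, edgeR). Crim1 and Ptpn14 were at 0.11 and 0.05. Ankrd1, at 4.47, was above all 5, but it was chosen for this difference, so nothing is read from its place. Of 12 TEAD and muscle transcription factor genes put together from the symbols at hand, 0 passed on day 14 with edgeR, beside the same 0.273%. Of these 12, 6 were positive and 6 negative, with a median of 0.06. DESeq2 passed 1 higher and 2 lower, beside 6.8% of all genes. Without non-adhesive replicate 4, 4 of the 12 passed higher and 2 lower with edgeR, beside the same 20.5%. Vgll2 was among the higher (log2 fold change 1.02, adjusted p = 0.0422, edgeR). The lower were Zfpm2 at -2.9 and Meis1 at -1.42 (adjusted p = 0.00436 and 0.00434, edgeR). Tead3, which encodes a protein of the family that binds the MCAT letters shown above, was 38.0 to 42.7 CPM at adhesive day 14 and 39.6 to 45.9 CPM at non-adhesive day 14 (fitted log2 fold change -0.06, SE 0.1). Vgll2, a TEAD partner in skeletal muscle, was 55.5 to 109 CPM and 25.2 to 131 CPM (log2 fold change 0.42, SE 0.45).

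**Figure D4:**
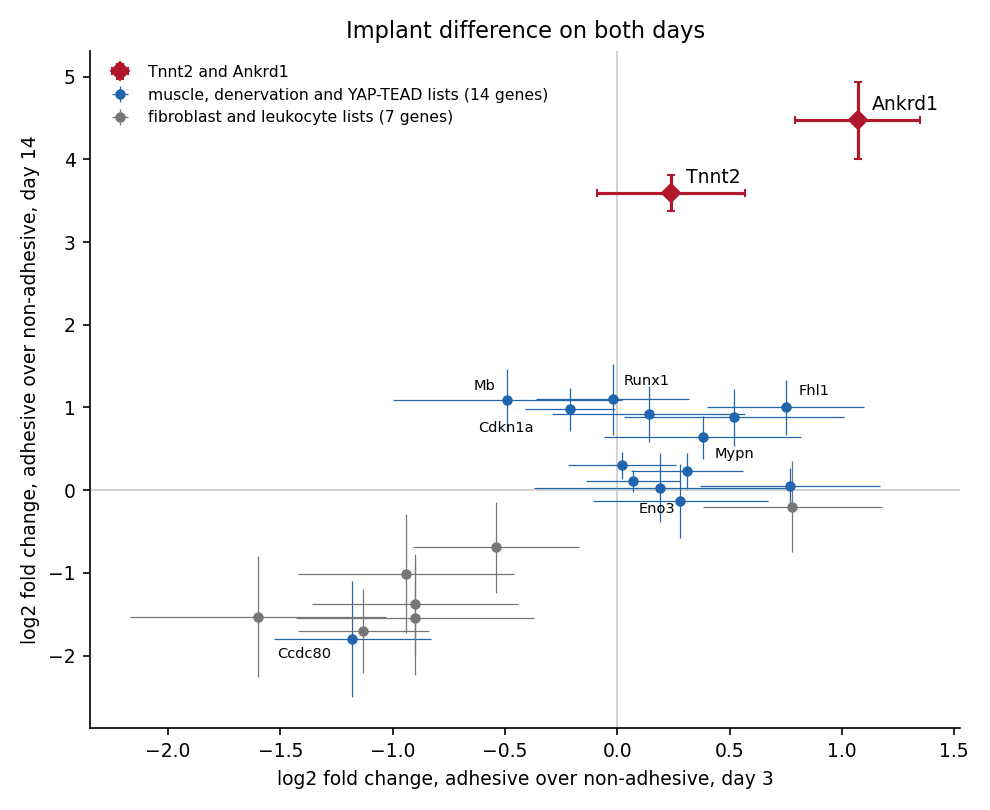
Log2 fold change of adhesive over non-adhesive implants on day 3 (horizontal axis) and day 14 (vertical axis), with standard errors as bars, for Tnnt2 and Ankrd1 and for 21 genes of the lists. Tnnt2 (0.24 on day 3 and 3.59 on day 14) and Ankrd1 (1.07 and 4.47) were chosen for their day 14 difference, so nothing is read from their height. Of the 14 muscle, denervation and YAP-TEAD genes the highest on day 14 is Runx1 at 1.1, and the 7 fibroblast and leukocyte genes lie below 0 on day 14.

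The fibroblast and leukocyte markers with a symbol had negative log2 fold changes on day 14. All 6 named fibroblast genes, among them Col1a1 and Dpt, were negative, with a median log2 fold change of -1.45 and a summed level of 2002 to 11733 CPM at adhesive day 14 and 2487 to 17361 CPM at non-adhesive day 14. None of these 6, nor Ptprc, passed with edgeR, while 3 of the 6 passed, all lower, without non-adhesive replicate 4, where 20.5% of all genes did. DESeq2 passed 1 of the 6, Dpt (adjusted p = 0.0164), and 6.8% of all genes. On day 3 all 6 were negative as well, with a median of -0.92 beside -0.01 for all genes. Ptprc was 39.3 to 88.6 CPM at adhesive and 16.5 to 138 CPM at non-adhesive implants. None of these markers was at 0 in any group. Their part in the values of Tnnt2 and Ankrd1 was not tested.

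Among stress genes 1 passed on day 14 with edgeR. Of 18 injury and stress genes put together from the symbols at hand after the values were known, Hsf2, a transcription factor of the heat shock response, had 59.0 to 72.3 CPM at adhesive and 25.4 to 36.8 CPM at non-adhesive implants (fitted log2 fold change 1.07, SE 0.14, adjusted p = 0.0332, edgeR). The other 17 did not pass, where 0.273% of all genes did, and the median of the 18 was 0.38 beside -0.04 for all genes. DESeq2 passed 3 of the 18, beside 6.8% of all genes, and edgeR without non-adhesive replicate 4 passed 4, beside 20.5%, all of them higher. Rcan1 was among both (adjusted p = 0.0167 with DESeq2 and 0.0276 with edgeR without that library). Between days, Myc, an early growth response gene, fell by 1.62 under adhesive implants and fell by 1.34 under non-adhesive implants on the log2 scale (adjusted p = 0.00439 and 0.00804, edgeR). Atf3, a stress-induced transcription factor, fell by 1.28 on the log2 scale under adhesive implants (SE 0.33, adjusted p = 0.0202, edgeR). It averaged 35.6 CPM at adhesive day 14 and 24.2 CPM at non-adhesive day 14, against 86.8 CPM at adhesive day 3 and 42.3 CPM at non-adhesive day 3. Rcan1, a feedback inhibitor of calcineurin, fell by 2.23 under non-adhesive implants (SE 0.44, adjusted p = 0.00507, edgeR). It averaged 154 CPM at adhesive day 14 and 67.5 CPM at non-adhesive day 14, against 381 CPM at adhesive day 3 and 316 CPM at non-adhesive day 3.

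Tnnt2 was the gene whose pattern was most like that of Ankrd1, and Ankrd1 was second in likeness to Tnnt2. By Pearson's r of log2 CPM over the 16 libraries, among 10402 genes with a mean of at least 5 CPM, only 1 gene was more like Tnnt2 than Ankrd1 was, and no gene was more like Ankrd1 than Tnnt2. The likeness rests on the 4 low libraries of non-adhesive day 14 and describes the same libraries that chose the genes, so no p-value is given. Of the 1571 other genes with a symbol, the 8 most like Tnnt2 were Slc43a2, Snx13, Gsk3b, Dyrk1a, Brwd1, Hsf2, Ranbp2 and Cct6a. Among the 8 most like Ankrd1 were Cct6a, Slc43a2, Slc35f5, Sbno1, Mgrn1, Ranbp2 and Chp1. Cct6a, Slc43a2 and Ranbp2 stood in both. Ranked by Spearman's rho in place of Pearson's r, 3 of the 8 for Tnnt2 and 4 of the 8 for Ankrd1 remained.

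Their levels varied less between groups. Slc43a2, an amino acid transporter and the first for Tnnt2, averaged 85.9 CPM at adhesive day 14 and 56.0 CPM at non-adhesive day 14, against 92.1 CPM at adhesive day 3 and 85.2 CPM at non-adhesive day 3. Gsk3b, a kinase, averaged 30.3 CPM at adhesive day 14 and 13.4 CPM at non-adhesive day 14, against 29.2 CPM at adhesive day 3 and 22.2 CPM at non-adhesive day 3. Cct6a, a subunit of the chaperonin that folds actin and tubulin, averaged 204 CPM at adhesive day 14 and 148 CPM at non-adhesive day 14, against 255 CPM at adhesive day 3 and 225 CPM at non-adhesive day 3. In each the non-adhesive mean of day 14 was the lowest of the 4 groups, as it was for Tnnt2 and Ankrd1.

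Of the genes nearest to Tnnt2 and Ankrd1 on their chromosomes, none of those tested passed on day 14, where 0.273% of all genes passed at any fold. The gene next to Tnnt2, ENSRNOG00000009144, averaged 0.993 CPM over the 16 libraries and had a log2 fold change between implants of 1.02 (SE 0.3, adjusted p = 0.158, edgeR). Farther from Tnnt2, ENSRNOG00000026087 averaged 716 CPM and was at 1.82 on day 14 (SE 0.45, adjusted p = 0.12, edgeR) and -0.4 on day 3. ENSRNOG00000010076 was at -1.57 and ENSRNOG00000009073 at 0.62 on day 14, and neither passed. The gene next to Ankrd1, ENSRNOG00000018718, averaged 20.8 CPM and had a log2 fold change of 0.14 (SE 0.2, adjusted p = 0.799, edgeR). Farther from Ankrd1, ENSRNOG00000018532 was at 0.52 (SE 0.17, adjusted p = 0.192, edgeR). ENSRNOG00000018827 and ENSRNOG00000060252, at 0.0851 and 0.0 CPM, were not tested.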

How the data were processed

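RNA was read from 16 libraries of rat abdominal wall, 4 per combination of implant and day. Per the labels and methods the authors made poly-A libraries (NEBNext Ultra), removed adaptors (cutadapt), mapped the reads (STAR) and summed them by gene (featureCounts). The deposited values are raw counts without normalization, and totals ran from 13852126 to 24858976 per library. Whether strand was used in counting, and at which settings, is not given in the sources used here. The methods name a rat genome build and the labels a mouse build, and chromosome 1 coordinates in the files run to 282724300, so the build of the files is not settled.

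Counts were tested with edgeR 4.0.16 in R 4.3.3 (quasi-likelihood test, robust, filterByExpr, TMM, Benjamini-Hochberg adjustment over all genes tested), per day for implants (8 libraries) and over 16 libraries for days and for the change between days. Calls needed an adjusted p no higher than 0.05 and an absolute log2 fold change of 1 or more, and a listed gene passed by the first of these alone. Standard errors are the log2 fold change over the square root of the F statistic. Log2 CPM levels used a prior count of 2. The tests were also tested on simulated data. With the fold limit, calls on day 14 recovered 29.9%, 85.1% and 95.4% of simulated log2 fold changes of 1, 2 and 3. On day 3 these shares were 30.3%, 84.8% and 95.5%. A listed gene near a log2 fold change of 1 that did not pass is thus not shown to be unchanged.

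Tnnt2, Ankrd1 and the gene lists were chosen with earlier results of these data known. Of 160 listed genes 24 besides these had a symbol, from the study's supplementary sheet matched to RefSeq names. Of each list up to 4 genes that passed with the largest log2 fold change, or else up to 4 with the highest mean CPM, are named, and further genes were named after their values were seen. Some genes that this rule gives are not reported here. The 28-gene, 18-gene and 12-gene lists were added from the symbols at hand. No 2 libraries of a group agreed within sampling noise. Depth limits low genes most: counts of Tnnt2 and Ankrd1 were at least 111 in every library. Alternatives were DESeq2 1.42.0 on the same genes and on genes with a mean count over 10, DESeq2 size factors, library totals, no filter, limma-voom (limma 3.58.1), 1 fit of 16 libraries, a replicate block, no fold limit and leaving out each library.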

Additional observations from a re-analysis of the deposited data

How the results depend on the processing

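Tnnt2 and Ankrd1 kept the direction of their day 14 difference in every alternative run. With single libraries left out the log2 fold change was 3.45 to 3.71 for Tnnt2 and 4.23 to 4.77 for Ankrd1 on day 14, and 0.06 to 0.6 for Tnnt2 and 0.93 to 1.27 for Ankrd1 on day 3. Over the day comparisons it was -0.13 to 0.09 and -1.24 to -0.81 under adhesive and -3.57 to -2.97 and -4.7 to -4.24 under non-adhesive implants, and the change between days was 3.0 to 3.56 and 3.16 to 3.7. Relative to Mb and Eno3 it was 2.66 to 3.19 and 3.44 to 4.18 on day 14, and 0.1 to 0.63 and 0.59 to 1.5 on day 3. Ankrd1 on day 3 passed with DESeq2 only (log2 fold change 1.08, adjusted p = 0.0378), and its adjusted p was 0.209 to 0.99 in the other fits. From library totals without TMM factors Tnnt2 was at -0.55 between days under adhesive implants.

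The counts of called genes depended more on the processing, and the cause was not tested. DESeq2 called 69 genes on day 3, 474 on day 14 and 25 for the change between days, and 73 and 513 on genes with a mean count over 10. On day 14 a fit of all 16 libraries called 216 genes and library totals 6. The share of day 14 calls that were higher at adhesive implants was 83.3% with library totals, 32.9% with DESeq2 and 29.6% in the fit of 16 libraries, beside 58.3% as reported, and the median of all genes was -0.22 with library totals, beside -0.04. On the day comparison under adhesive implants library totals called 2602. Without the fold limit 2174 and 2561 genes passed between days under adhesive and non-adhesive implants. With single libraries left out the counts were 0 on day 3, 1 to 1151 on day 14, 462 to 1570 and 744 to 1740 between days, and 0 to 3 for the change. Of the 24 listed genes DESeq2 passed 1 on day 3 and 5 on day 14, the added lists gave 1, and left-out libraries gave 0, 0 to 9, 3 to 9 and 6 to 9. Of the 8 genes most alike, 3 and 4 remained under Spearman's rho.

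Whether the replicate numbers pair the libraries is not settled. Same-numbered libraries of day 14 correlated in their deviations at -0.34 to 0.48 and those of day 3 at -0.31 to 0.3. The best match had the same number for replicates 2, 3 and 4 of day 14 and for no replicate of day 3. With the replicate block 0 genes were called on day 14 and 0 on day 3, and the log2 fold changes were 3.61 and 4.46 on day 14 and 0.35 and 1.07 on day 3 for Tnnt2 and Ankrd1.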
